A study of Mus musculus with 8 samples.

Results

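The cornified envelope is the cross-linked protein shell that replaces the plasma membrane of a keratinocyte in the outermost, dead layer of the epidermis, and many of its building blocks are encoded side by side in the epidermal differentiation complex of mouse chromosome 3. The 48 genes described here are the rows of the count table on chromosome 3 whose symbol starts with Lce (late cornified envelope) or Sprr (small proline-rich), plus Lor, Ivl, Flg2, Hrnr, Rptn, Crnn, Crct1, Kprp, Lelp1, Pglyrp3 and Pglyrp4, out of 22740 listed genes. The S100 genes of the same region were left out. Flg, the filaggrin gene, was not analysed here. By subfamily the 48 members were 14 Lce1, 6 Lce3, 2 Sprr1 and 12 Sprr2 genes, 4 genes of the fused S100 type and 10 others, and they spanned 90726906 to 93399442 of chromosome 3 in GRCm38.

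RNA was sequenced from the skin of 8 female BALB/c mice that formed 4 groups of 2, with a library made from each mouse. Butyrate mice drank 400 mM sodium butyrate, a short-chain fatty acid that gut bacteria make from fibre, and CTL mice plain water. Lesional skin is dorsal skin that was shaved and exposed to 15 µg of house dust mite extract (HDM) 4 times over 2 weeks under a dressing, which served as a model of atopic dermatitis, and its butyrate had begun 2 weeks before. Baseline skin had received no HDM and was collected when the butyrate period ended. All mice were 6 to 8 weeks old and, by the study's methods, ate a low-fibre diet. The 4 groups are therefore baseline CTL (replicates 1 and 2), baseline butyrate (replicates 1 and 3), lesional CTL (replicates 4 and 5) and lesional butyrate (replicates 3 and 4). Baseline and lesional mice belong to differently numbered sets in the labels, so HDM exposure, shaving and dressing, time of collection and mouse set cannot be told apart.

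Envelope genes are switched on as keratinocytes leave the basal layer. Involucrin (Ivl) is laid down early as a scaffold, loricrin (Lor) makes up most of the mature envelope in mouse skin, the Lce and Sprr proteins are short cross-linked reinforcements, and the fused S100 proteins (the filaggrin relatives Flg2, Hrnr, Rptn and Crnn) are large repeat proteins of the granular layer. Lce1 genes are typical of unperturbed interfollicular epidermis, whereas Lce3, Sprr1 and Sprr2 genes are known as genes of wounded, inflamed or barrier-disrupted skin.

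Levels are given as CPM, in which a gene's counts are set against a fixed total per library, from library totals of 18004136 to 21085544 counts, scaled by trimmed mean of M-values (TMM) factors of 0.944 to 1.04, and 3 counts, used as the floor, equalled 0.138 to 0.169 CPM. The members took 0.345% to 0.727% of the counts of a library. A gene was called when edgeR's quasi-likelihood test over 15163 genes gave a false discovery rate (FDR, Benjamini-Hochberg) under 0.1 with a change of more than 2-fold, and 44 of the 48 members were tested, all except Lelp1, Sprr2k, Sprr3 and Crnn. A direct exact permutation test of 2 mice against 2 cannot give a p below 0.333. In whole skin, fewer cells of a type and less RNA per cell cannot be told apart.

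Baseline butyrate replicate 3 stood apart from the other libraries. Its inner root sheath genes (6 of 6 listed, none at 0 everywhere), which mark growing hair follicles, summed to 17320 CPM against 7.67 to 16.1 CPM in the other 7 mice, and its suprabasal keratins summed to 2508 CPM against 14520 CPM in its group mate. Among 42 members with at least 1 CPM on average, 32 lay more than 2-fold apart between the 2 baseline butyrate mice, against 3 to 6 in each of the other groups. Of all 14198 genes at that level, 3751 did so in this pair, against 198 to 676 in the other groups, so the difference was not limited to the members. Crnn (cornulin) had 571 CPM in that mouse and 0.138 to 0.5 CPM in the other 7, and Sprr1a had 1516 CPM there and 137 CPM in the other baseline butyrate mouse. Its part in each result was not tested beyond the values given without it.

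In untreated baseline CTL skin the envelope genes ranged from abundant to near-silent. Per kilobase of exon, the most abundant member was Lce1m with 677 CPM per kb, followed by Lce1a1 with 399, Lor with 370 and Lce1b with 254 CPM per kb. All 14 Lce1 genes had a group mean of at least 1 CPM, from 7.78 CPM for Lce1h to 643 CPM for Lce1m. By contrast 1 of 6 Lce3 genes (Lce3c, 3.44 CPM) and 3 of 12 Sprr2 genes reached 1 CPM, the highest being Sprr2h with 7.28 CPM. Lesional CTL skin had another order of levels per kb, led by Sprr1a with 1293, Sprr4 with 783, Sprr1b with 523 and Sprr2d with 300 CPM per kb, while Lce1m had 27.9 and Lor 69.6 CPM per kb.

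**Figure D1:**
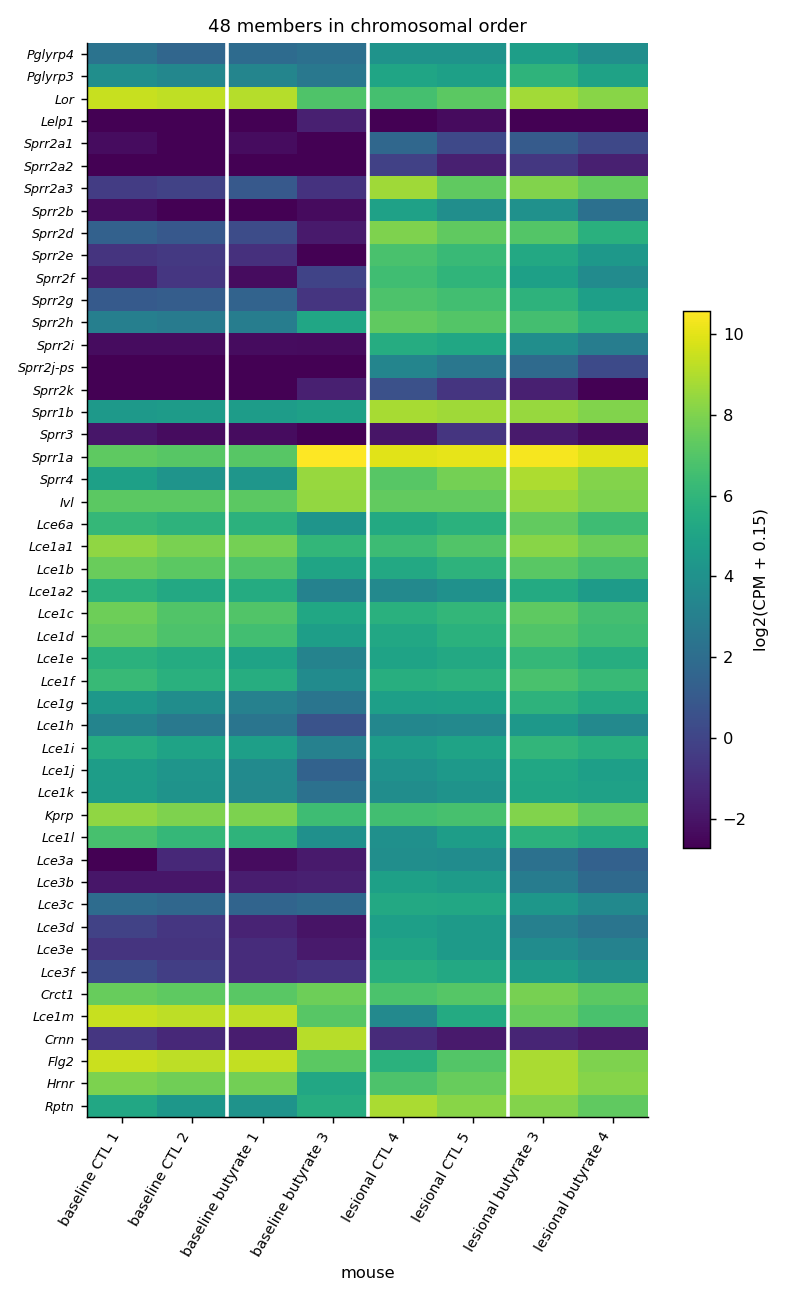
Level of the 48 members (rows, in chromosomal order) in each of the 8 mice (columns), as log2 of CPM plus 0.15 by colour. The 6 Lce3 rows are brighter in every lesional than in every baseline mouse, Lor, Lce1m and Flg2 are dimmer in the lesional CTL than in the baseline CTL mice, and Crnn is bright only in baseline butyrate 3 (571 CPM).

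The sequences before the transcription starts are shown because the Sprr2 genes moved together, as did the Lce3 genes. Close neighbours of different subfamilies could move apart, as Lce3f (log2 fold change 5.66) and Lce1m (-4.60) did with HDM in CTL mice. RefSeq promoters on GRCm38.p6 were matched for 41 of 48 members, and the 250 bases before the start are printed 5′ to 3′ on the gene's strand for the Sprr2 genes Sprr2d, Sprr2e and Sprr2i, and for Lor, Lce3b and Lce1m, which stand for the other patterns below. Capitals mark TGACTCA, the core of an AP-1 element, on either strand (read here as TGAGTCA), and the TATA box letters TATAAA on the gene's strand.
Sprr2d (chr3:92338890-92339139, + strand): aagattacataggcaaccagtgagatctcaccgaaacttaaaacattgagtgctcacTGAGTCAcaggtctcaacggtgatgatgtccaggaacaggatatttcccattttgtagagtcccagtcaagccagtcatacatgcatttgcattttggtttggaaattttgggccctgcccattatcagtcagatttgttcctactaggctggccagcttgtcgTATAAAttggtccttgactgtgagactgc
Sprr2e (chr3:92351893-92352142, + strand): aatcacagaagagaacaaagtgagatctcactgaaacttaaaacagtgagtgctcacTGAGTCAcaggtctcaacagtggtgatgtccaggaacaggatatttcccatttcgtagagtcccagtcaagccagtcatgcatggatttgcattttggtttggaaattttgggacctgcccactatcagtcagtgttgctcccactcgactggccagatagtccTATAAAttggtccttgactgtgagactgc
Sprr2i (chr3:92407741-92407990, + strand): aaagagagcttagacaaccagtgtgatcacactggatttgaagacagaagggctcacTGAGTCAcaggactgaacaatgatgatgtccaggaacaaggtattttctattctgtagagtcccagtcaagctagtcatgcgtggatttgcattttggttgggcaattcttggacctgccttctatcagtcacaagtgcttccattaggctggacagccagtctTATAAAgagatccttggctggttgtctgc
Lor (chr3:92083143-92083392, − strand): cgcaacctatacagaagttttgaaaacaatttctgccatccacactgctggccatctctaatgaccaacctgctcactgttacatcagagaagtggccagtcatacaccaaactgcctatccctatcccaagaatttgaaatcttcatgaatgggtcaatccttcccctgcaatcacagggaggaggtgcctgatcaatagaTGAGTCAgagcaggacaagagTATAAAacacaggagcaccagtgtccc
Lce3b (chr3:92932729-92932978, + strand): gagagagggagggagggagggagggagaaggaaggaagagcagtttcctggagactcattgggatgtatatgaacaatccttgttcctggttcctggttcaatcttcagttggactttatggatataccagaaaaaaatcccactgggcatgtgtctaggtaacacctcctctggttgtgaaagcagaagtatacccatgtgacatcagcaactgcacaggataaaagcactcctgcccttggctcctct
Lce1m (chr3:93019062-93019311, − strand): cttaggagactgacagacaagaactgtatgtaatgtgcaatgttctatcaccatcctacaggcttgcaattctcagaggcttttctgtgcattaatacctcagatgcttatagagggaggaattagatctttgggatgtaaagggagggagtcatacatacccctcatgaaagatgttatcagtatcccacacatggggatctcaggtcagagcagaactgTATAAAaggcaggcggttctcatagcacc

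The 3 Sprr2 promoters hold the AP-1 core at the same place, with its first base 193 bases before the start, and TATAAA 29 bases before it. Base by base, those of Sprr2d and Sprr2e were 88.0% identical and those of Sprr2e and Sprr2i 70.8%. The AP-1 core was found in 7 of 10 Sprr2 promoters (70.0%), always 182 to 198 bases before the start, in 0 of 13 Lce1 and 0 of 6 Lce3 promoters and in 4.43% of 27025 mouse promoters of that length. The Sprr2 promoters without it were those of Sprr2a1, Sprr2a2 and Sprr2a3, which also lacked TATAAA. Sprr2a3 had the highest mean of the subfamily in lesional CTL skin, 285 CPM. In Lor the AP-1 core lay 48 bases before the start, in Ivl 116 bases, and in Sprr1a at 146 and 116 bases, while Sprr1b had none. In all, 10 of 41 members held it (24.4%). Because Sprr2 promoters resemble each other in sequence, their matches are not independent. TATAAA was found in 17 of 41 members (41.5%) against 8.12% of all promoters. TTNNGCAA, a C/EBP core searched on both strands, was found in 9.76% of members and 9.55% of all promoters, and an interferon-stimulated response element core and AACCNGGTT, a grainyhead core, both searched likewise, in 0 of 41 members against 3.04% and 0.244%. These matches describe the letters of the windows and say nothing of binding.

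Sprr2 and Lce3 genes rose after HDM exposure of CTL mice, and the most abundant Lce1 gene, Lce1m, fell. Of 44 tested members, 19 rose and 1 fell, against a background of 3.58% of all tested genes called in either direction, 2.37% higher and 1.21% lower. An unadjusted p below 0.05 was given by edgeR for 33 of 44 members and 19.7% of all tested genes. The groups did not overlap for 41 of 44 members, 26 higher and 15 lower in lesional skin, where 75.2% of all tested genes did not overlap. The calls were 10 of 11 tested Sprr2 genes, 6 of 6 Lce3 genes, Sprr1b, Rptn and Pglyrp4 among the increases, and Lce1m as the decrease. Median log2 fold changes were 5.80 for Lce3 and -0.94 for Lce1, beside -0.02 over all tested genes. For Sprr2 the median of the fitted values was 7.49, and it was 6.59 with the genes that had 0 baseline counts set to their lower bound.

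Sprr2 genes encode small proline-rich bridges of the envelope. As a subfamily they summed to 13.6 and 12.4 CPM in baseline CTL skin and to 1222 and 734 CPM in lesional CTL skin, 75.1-fold apart in their means (log2 fold change of the summed counts 6.23, standard error 0.67, edgeR FDR 0.031). Both lesional mice lay far above both baseline mice. Sprr2d (chr3:92339140-92340873) had 2.5 and 1.72 CPM at baseline and 251 and 158 CPM in lesional CTL skin (6.59, 0.81, edgeR FDR 0.031). Here and below, values in brackets are the log2 fold change and its standard error, in that order.

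Several Sprr2 genes were at or under the floor before exposure, so that their fold-changes are only loosely fixed. Sprr2i (chr3:92407991-92409271) had 2 counts over both baseline CTL mice and 1655 over both lesional CTL mice (45.7 and 36.8 CPM), a ratio of 737 with an exact 95% counting interval of 204 to 6094 (edgeR FDR 0.0045). Sprr2b had 1 and 857 counts, a ratio of 764 with an interval of 137 to 30200. Sprr2j-ps, a pseudogene by its symbol, had 0 and 305 counts and was at least 90.6-fold higher, with the floor taken over the group. These intervals cover counting error only.

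Sprr2a3 had 0.611 and 0.777 CPM at baseline and 411 and 159 CPM in lesional CTL skin (log2 fold change 8.67, standard error 0.88, edgeR FDR 0.023), and Sprr2e and Sprr2f had 7.49 (0.78) and 7.81 (0.95) on the same scale. Sprr2a1, Sprr2a2 and Sprr2a3 share 96.3%, 96.5% and 61.1% of their 50-base windows with another gene, mostly with each other, so the split of reads between them is uncertain. The composition of the subfamily differed between conditions. Sprr2h held 57.6% and 54.0% of the Sprr2 counts in baseline CTL skin and 13.2% and 17.4% in lesional CTL skin, where Sprr2a3 held 33.7% and 21.6%.

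The Lce3 genes, which in humans are tied to psoriasis risk and barrier repair, summed to 6.17 and 5.11 CPM at baseline and to 190 and 159 CPM in lesional CTL skin (log2 fold change 4.95, standard error 0.30, edgeR FDR 0.0084). Lce3b (chr3:92932979-92934097) had 2 counts in each baseline CTL mouse, 0.111 CPM, and 27.8 and 23.9 CPM after HDM, with a fitted log2 fold change of 7.78 (standard error 0.54, edgeR FDR 0.0072) and a ratio of 231 with an exact 95% counting interval of 90.05 to 850. Lce3c was the least changed of the 6, from 3.78 and 3.11 CPM to 38.7 and 37.4 CPM. The 6 Lce3 genes share 12.1% to 49.3% of their 50-base windows with another gene, so their separate values carry that uncertainty and the sum less of it.

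Sprr1b (chr3:92436809-92438789), a cross-bridging protein of stressed epithelia, rose from 21.4 and 23.6 CPM to 459 and 409 CPM (log2 fold change 4.27, standard error 0.22, edgeR FDR 0.0040). Its neighbour Sprr1a had 154 and 139 CPM at baseline and 1015 and 1069 CPM in lesional CTL skin, and did not pass the test over all genes. Rptn, which encodes the fused S100 protein repetin, rose from 37.8 and 19.8 CPM to 475 and 294 CPM (3.74, 0.64, FDR 0.051 by edgeR). Pglyrp4, an antibacterial peptidoglycan recognition protein, had 4.84 and 3.05 CPM before and 16.9 and 16.8 CPM after HDM.

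Lce1m (chr3:93017810-93019060) showed the opposite course. It had 687 and 598 CPM in baseline CTL skin and 11.5 and 41.4 CPM in lesional CTL skin, a 24.3-fold lower mean (log2 fold change -4.60, standard error 0.93, edgeR FDR 0.073). Without lesional CTL replicate 4 it had -3.95 and without replicate 5 -5.81, and it was not called in either fit. None of its 50-base windows occurs in another gene. Its share of all Lce1 counts was 35.0% and 39.6% at baseline and 2.7% and 7.0% in lesional CTL skin, while that of Lce1a1 was 16.6% and 15.7% before and 19.9% and 21.1% after.

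The other Lce1 genes differed by place, a split made after their values were seen. The 5 genes from Lce1a1 to Lce1d had log2 fold changes of -1.78 to -1.43, and the 7 genes from Lce1e to Lce1k had -0.47 to 0.71. Lce1l, which the Lce3 genes and Crct1 separate from Lce1m, had -2.09. None of these genes was called. The summed Lce1 level was 1965 and 1509 CPM at baseline and 424 and 591 CPM after HDM (log2 fold change -1.77, standard error 0.62, edgeR FDR 0.205), so the groups did not overlap but the sum missed the threshold. Lce1 genes share up to 27.1% of their windows with other genes.

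Lor (chr3:92080271-92083142) had 701 and 616 CPM at baseline and 101 and 147 CPM in lesional CTL skin (log2 fold change -2.41, standard error 0.68, edgeR FDR 0.141). Flg2 (chr3:93197278-93221391), encoding a filaggrin-like protein, had 717 and 600 CPM and then 54.4 and 130 CPM (-2.84, 0.78, FDR 0.137 by edgeR). Both pairs of groups lay apart without overlap, and neither gene passed. Hrnr (hornerin, chr3:93319749-93333570) had 250 and 206 CPM at baseline and 117 and 176 CPM after HDM (-0.64, 0.73, FDR 0.639 by edgeR), and Ivl (chr3:92570902-92573735) had 147 CPM in both baseline CTL mice and 165 and 167 CPM in both lesional CTL mice (0.18, 0.38, FDR 0.814 by edgeR). Ivl lay below 0 when libraries were scaled to the basal keratins Krt5 and Krt14 (-0.26). That scaling moved the median of all tested genes by -0.43 in this comparison, to -0.45, so Ivl lay above that median.

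The count of calls after HDM depended on which mice were fitted. Where mice were left out in this paragraph, it was 1 mouse at a time. It was 20 of 44 with all 8 mice, also with limma-voom (3.81% of all tested genes), 31 (22 up, 9 down) with DESeq2 (7.21%), 32 (22 up, 10 down) with only the 4 compared mice and 34 (24 up, 10 down) without baseline butyrate replicate 3. It was 0 without either baseline CTL mouse, 5 without lesional CTL replicate 4, 7 without lesional CTL replicate 5 and 12 without either lesional butyrate mouse, and these fits called 0% to 0.748% of all tested genes. With only the compared mice 12.9% of all genes were called, and without baseline butyrate replicate 3 12.5%. Scaled to Krt5 and Krt14, 20 members were called higher and 10 lower, in a fit that called 2.71% of all tested genes higher and 11.3% lower. The Lce3 sum was called without any 1 mouse other than a baseline CTL mouse, and the Sprr2 sum was not called without a baseline CTL or a lesional CTL mouse. In the fit without lesional CTL replicate 4, the calls among single members were Sprr2i, Sprr1b, Lce3b, Lce3e and Lce3f.

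**Figure D2:**
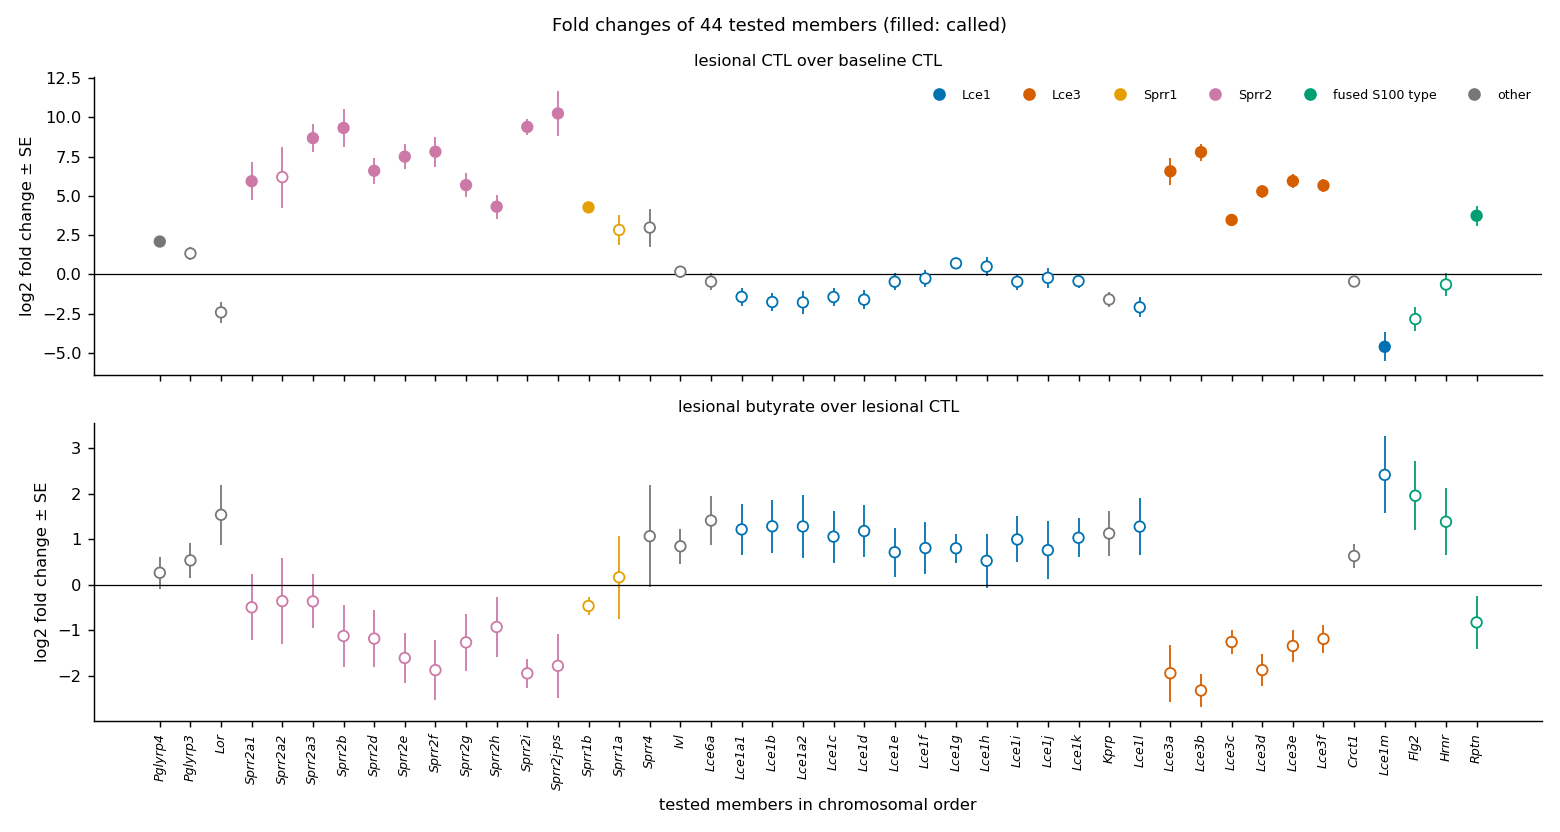
Log2 fold change (points) and its standard error (bars) of the 44 tested members in chromosomal order, coloured by subfamily, with filled points for called genes, for HDM in CTL mice (top) and butyrate in lesional skin (bottom, on a narrower axis). The Sprr2 and Lce3 points lie above 0 at the top and below 0 at the bottom, while the Lce1 points lie between -4.60 and 0.71 at the top and above 0 at the bottom. Both panels use the lesional CTL mice, so they share those values.

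The study asked whether butyrate changes allergen-exposed skin, and within lesional skin the members differed by subfamily in the opposite sense, without any passing the threshold. By edgeR 0 of 44 members were called (background 0%), 14 of 44 had an unadjusted p below 0.05 (4.84% of all tested genes), and 0 were called by limma-voom (0.0066% of all tested genes) and 6 by DESeq2 (0.818%). The groups did not overlap for 37 of 44 members, 22 higher and 15 lower with butyrate, where 44.9% of all tested genes did not overlap, 22.4% higher and 22.5% lower. Median log2 fold changes were 1.05 for Lce1, -1.61 for Lce3 and -1.19 for Sprr2, beside -0.01 over all tested genes. All 14 Lce1 genes were higher and all 6 Lce3 genes lower in both butyrate mice than in both CTL mice and all 11 tested Sprr2 genes had a lower fitted mean, 7 of them without overlap. This comparison and that of HDM in CTL mice share the lesional CTL mice, so a high value there enters both with opposite sign.

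Among the Lce3 genes, Lce3b had 27.8 and 23.9 CPM in lesional CTL skin and 6.97 and 3.30 CPM in lesional butyrate skin (log2 fold change -2.33, standard error 0.37, edgeR FDR 0.737). The subfamily sum was 190 and 159 CPM against 76.3 and 46.4 CPM (-1.50, 0.26, FDR 0.753 by edgeR). No butyrate mouse reached the level of a CTL mouse. Lce3b made up 14.6% and 15.1% of Lce3 counts in lesional CTL skin and 9.13% and 7.12% in lesional butyrate skin.

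Of the Sprr2 genes, Sprr2i had 45.7 and 36.8 CPM with CTL and 13.9 and 7.40 CPM with butyrate (log2 fold change -1.95, standard error 0.32, edgeR FDR 0.737). Sprr2e had 106 and 76.6 CPM against 39.3 and 20.3 CPM (-1.61, 0.56), and Sprr2f had 88.8 and 63.0 against 28.4 and 12.8 CPM (-1.88, 0.66). Sprr2d had 251 and 158 against 127 and 52.8 CPM, groups that do not overlap (-1.19, 0.63, FDR 1.00 by edgeR). Sprr2a3 differed from these, with 411 and 159 CPM against 268 and 174 CPM, and its groups overlapped (-0.37, 0.59). As a result Sprr2a3 held 41.1% and 48.7% of the Sprr2 counts in lesional butyrate skin.

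Lce1m had 11.5 and 41.4 CPM in lesional CTL skin and 177 and 107 CPM in lesional butyrate skin (log2 fold change 2.42, standard error 0.85, edgeR FDR 0.942). Its fold depended on which lesional CTL mouse was used, with 1.77 without replicate 4 and 3.63 without replicate 5. Flg2 had 54.4 and 130 CPM against 465 and 252 CPM (1.96, 0.76, FDR 0.989 by edgeR), and 1.47 and 2.72 without the same mice. Lor had 101 and 147 CPM against 423 and 297 CPM (1.54, 0.66, FDR 1.00 by edgeR). In all 3 genes both butyrate mice lay above both CTL mice and below both baseline CTL mice.

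Hrnr reached 477 and 289 CPM in lesional butyrate skin, above the 206 to 250 CPM of baseline CTL skin as well as the 117 and 176 CPM of lesional CTL skin (1.39, 0.74, FDR 1.00 by edgeR for butyrate in lesional skin). Ivl had 165 and 167 CPM against 350 and 247 CPM (0.85, 0.38). Rptn, lower with butyrate like the Sprr2 genes, had 475 and 294 CPM against 273 and 159 CPM (-0.83, 0.58), with groups that do not overlap. Sprr1b had 459 and 409 against 363 and 265 CPM (-0.47, 0.19), and Sprr1a had 1015 and 1069 against 1329 and 1005 CPM, so the Sprr1 sum was nearly the same, 1476 ± 3.65 and 1481 ± 298 CPM (SD, n = 2).

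**Figure D3:**
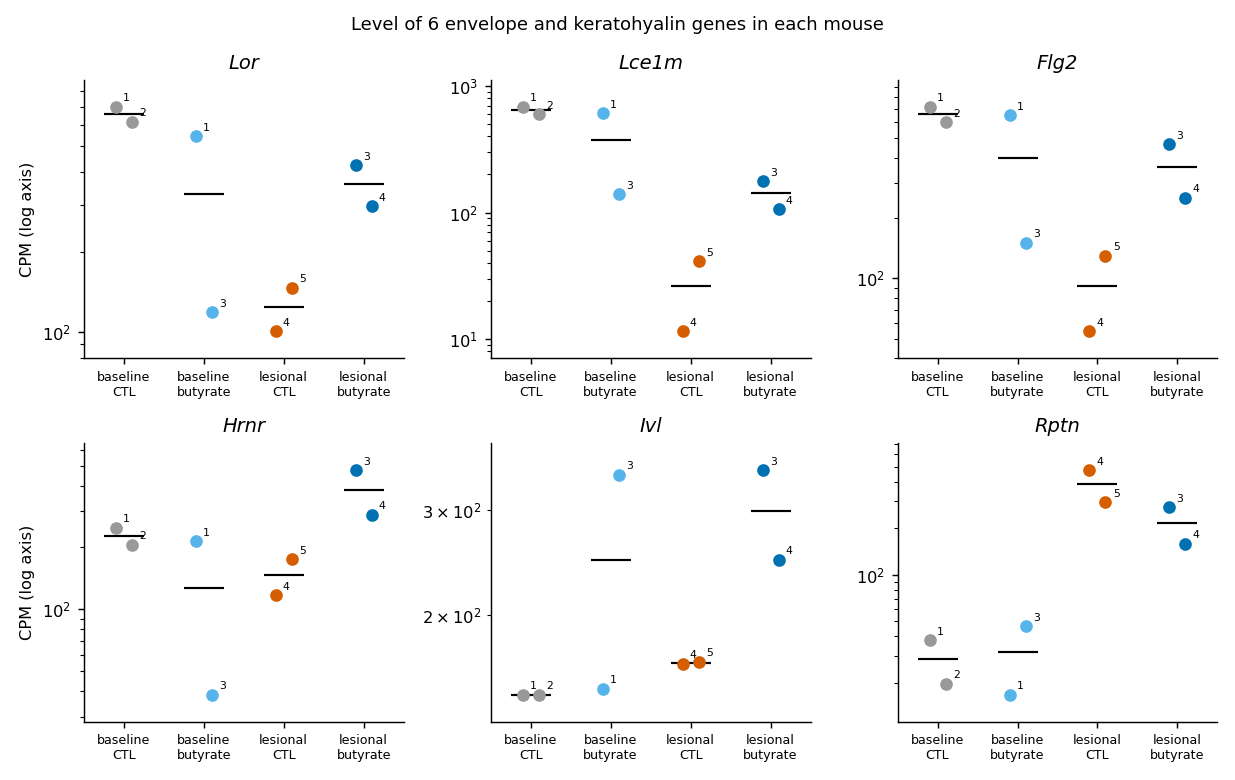
CPM (log axis) of Lor, Lce1m, Flg2, Hrnr, Ivl and Rptn in each mouse (points, numbered by replicate), with the mean of the 2 mice of each group as a bar. For Lce1m and Flg2 the 2 lesional CTL mice sit lowest, for Lor baseline butyrate 3, at 119 CPM, lies between them, and for Rptn all 4 lesional mice, at 159 to 475 CPM, sit above all 4 baseline mice.

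The 4 groups share 1 estimate of spread, so the spread between the 2 baseline butyrate mice enters these tests. Its part in the number of calls was not tested. Without either baseline butyrate mouse, an alternative added after the data were seen, edgeR called 6 members for butyrate in lesional skin, 1.25% of all tested genes being called. These were Lor (1.54, FDR 0.078) among the increases and Lce3b (-2.33, FDR 0.062), Lce3d (-1.88, FDR 0.052), Sprr2i (-1.95, FDR 0.068), Lce3c (-1.26, FDR 0.094) and Lce3e (-1.35, FDR 0.097) among the decreases. The count was also 6 without baseline butyrate replicate 1 alone and without replicate 3 alone (1.22% of all tested genes). limma-voom without replicate 3 called 12 members (1.41% of all tested genes), and with only the 4 lesional mice edgeR called 0 members while 0.168% of all genes were called.

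Other markers moved with these values, and their part was not tested. The neutrophil list (7 of 7 genes listed, none at 0 everywhere), which includes S100a8 and S100a9, summed to 13.6 to 22.1 CPM in baseline skin. It summed to 2651 and 1647 CPM in lesional CTL skin and to 772 and 347 CPM in lesional butyrate skin. Such a sum weighs the most abundant genes most and is not a count of neutrophils. All 6 tested genes of the list had a lower fitted mean with butyrate in lesional skin (median log2 fold change -2.01). The suprabasal keratins (6 of 6) are made above the basal layer. They summed to 15040 and 14320 CPM in baseline CTL skin, 2624 and 4128 CPM in lesional CTL skin and 12400 and 9798 CPM in lesional butyrate skin. The basal keratinocyte genes (6 of 6) stayed within 7631 to 13200 CPM, and the skeletal muscle genes (6 of 6) lay at 36500 and 44300 CPM in baseline CTL skin and at 12520 to 22380 CPM in the lesional mice.

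Ratios of members within a library do not depend on scaling between libraries. The Lce1 genes together had 318 and 296 counts for each Lce3 count in baseline CTL skin, 2.24 and 3.73 in lesional CTL skin and 18.1 and 19.8 in lesional butyrate skin. For each Sprr2 count there were 51.5 and 49.6 Lor counts in baseline CTL skin, 0.0824 and 0.200 in lesional CTL skin and 0.649 and 0.833 in lesional butyrate skin. Both ratios were higher in both lesional butyrate mice than in both lesional CTL mice and lower than in both baseline CTL mice. Baseline butyrate skin had ratios of 357 and 84.2 for Lce1 over Lce3 and of 40.3 and 3.20 for Lor over Sprr2, the lower value each time in replicate 3.

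**Figure D4:**
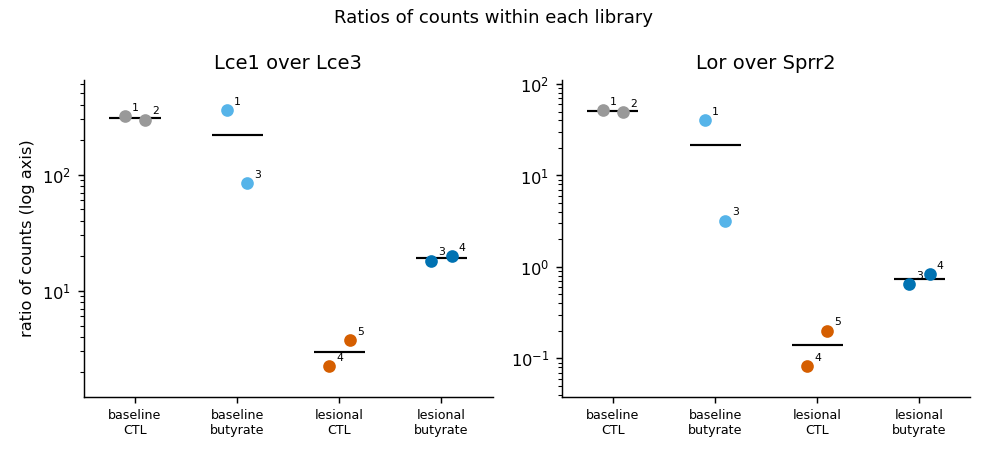
Counts of all Lce1 genes divided by counts of all Lce3 genes (left) and counts of Lor divided by counts of all Sprr2 genes (right) within each library, on log axes, with points numbered by replicate and bars at the mean of 2 mice. Lesional CTL mice sit lowest in both panels (2.24 and 3.73, and 0.0824 and 0.200), and lesional butyrate mice lie between them and the baseline CTL mice.

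Butyrate at baseline, before any allergen, gave 0 calls among 44 members (background 0%), 6 with an unadjusted p below 0.05 by edgeR (3.49% of all tested genes) and 0 by limma-voom or DESeq2, which called 0% and 0.383% of all tested genes. The groups did not overlap for 24 of 44 members, 3 higher and 21 lower, where 29.7% of all tested genes did not overlap, 13.8% higher and 15.9% lower. Without replicate 1 edgeR called 26 members and 24.1% of all tested genes. The median of the 14 Lce1 genes was -1.16 with both mice and -0.53 without replicate 3, and all 14 were below 0 in both fits. In replicate 1 Lor had 542 CPM, Lce1m 611 CPM, Flg2 648 CPM, Hrnr 215 CPM, Ivl 150 CPM and Sprr1b 24.8 CPM. The baseline CTL mice had 616 to 701 CPM of Lor, 598 to 687 CPM of Lce1m, 600 to 717 CPM of Flg2 and 206 to 250 CPM of Hrnr, so that only Lor of these 4 lay outside their range. Replicate 3 had 119 CPM of Lor, 139 CPM of Lce1m, 150 CPM of Flg2 and 38.3 CPM of Hrnr, together with 343 CPM of Ivl, 367 CPM of Sprr4 and 571 CPM of Crnn.

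HDM in butyrate-treated mice was measured against this uneven baseline pair. Of 44 members 11 rose and 0 fell, against 0.35% of all tested genes called and 0.277% called higher. They were Sprr1b, 4 Sprr2 genes (Sprr2a3, Sprr2d, Sprr2e and Sprr2i), 5 Lce3 genes (all but Lce3a) and Lce1g. The groups did not overlap for 30 of 44 members, all higher, where 32.5% of all tested genes did not overlap. Sprr1b had 24.8 and 28.2 CPM at baseline and 363 and 265 CPM after HDM (log2 fold change 3.57, standard error 0.21, edgeR FDR 0.015), and Lce3f had 0.338 and 0.429 CPM and then 23.7 and 14.6 CPM (5.61, 0.40, FDR 0.023 by edgeR). Lce3e had 5.49 (0.47, FDR 0.029 by edgeR), and Sprr2d, Sprr2e and Sprr2a3 had 7.19 (0.88), 7.29 (0.84) and 7.66 (0.83). The baseline butyrate means were low, 0.635 CPM for Sprr2d and 1.12 CPM for Sprr2a3. Leaving out 1 mouse at a time gave 6.31 to 9.24 for Sprr2d, 6.22 to 12.2 for Sprr2e and 6.93 to 8.99 for Sprr2a3. Sprr2i had 2 counts before and 451 after, a ratio of 206 with an interval of 56.7 to 1705.

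Lor, Flg2 and Lce1m had log2 fold changes of 0.12 (standard error 0.65), -0.16 (0.73) and -1.41 (0.82) with HDM in butyrate mice, and none passed. Of the 14 Lce1 genes 13 lay above 0, against 9 when scaled to Krt5 and Krt14. The sign of Lor and of the Lce1 sum depended on the mice fitted: without baseline butyrate replicate 3 Lor had -0.59 and the summed Lce1 genes -0.29, against 0.37 for that sum with all mice, without lesional butyrate replicate 3 Lor had -0.15, and scaling to Krt5 and Krt14 also put Lor at -0.57 and the Lce1 sum at -0.33, a scaling that moved the median of all genes by -0.73. The calls numbered 38 without baseline butyrate replicate 1 (19.1% of all tested genes), 25 without replicate 3 (5.94% of all tested genes), 28 with DESeq2 (4.6%), 7 with limma-voom (0.277%) and 0 with only the 4 compared mice. They numbered 2 and 3 without baseline CTL replicates 1 and 2, 0 and 2 without lesional CTL replicates 4 and 5, and 2 and 4 without lesional butyrate replicates 3 and 4.

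**Figure D5:**
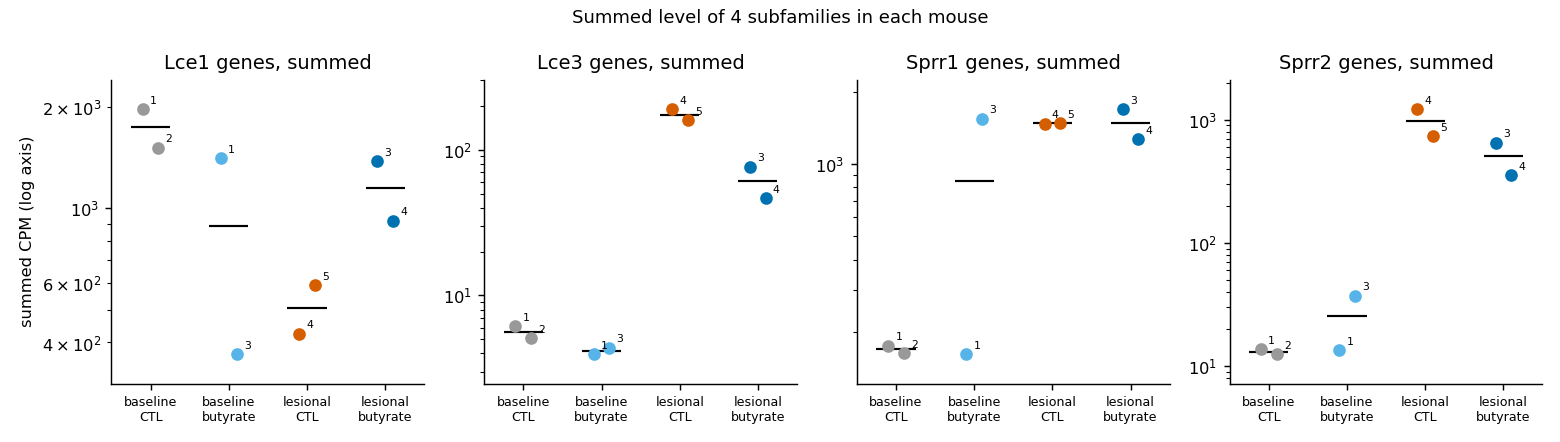
Summed CPM (log axes) of the 14 Lce1, 6 Lce3, 2 Sprr1 and 12 Sprr2 genes in each mouse (points, numbered by replicate), with the mean of the 2 mice of each group as a bar. Lce3 and Sprr2 sums are lowest in baseline mice, highest in lesional CTL mice and between in lesional butyrate mice, and the baseline butyrate mice are far apart for Lce1 (1408 and 369 CPM) and Sprr1 (161 and 1544 CPM).

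Whether butyrate acted differently in lesional and baseline skin was tested as the difference of both effects. By edgeR 0 of 44 members were called (background 0%), 19 had an unadjusted p below 0.05 (4.64% of all tested genes), and DESeq2 called 2 (0.244%). For the 14 Lce1 genes the median difference was 2.17 and all 14 were above 0, with an edgeR FDR of 0.840 for each of them. Without baseline butyrate replicate 1 edgeR called 25 members (20.9% of all tested genes), and without replicate 3 it called 0.

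Genes that work with the envelope were counted from lists of known partners. With HDM in CTL mice, 2.37% of all tested genes were called higher and 1.21% lower. A single call in a list therefore describes that gene and not the list. Of 15 genes for cross-linking enzymes, desmosomes and scaffold, such as the transglutaminases Tgm1, Tgm3 and Tgm5 that weld envelope proteins together, 0 rose and 1 fell with HDM in CTL mice, the desmosomal cadherin Dsg1a (log2 fold change -1.24, standard error 0.26, edgeR FDR 0.074). The most abundant of them, the desmosomal plaque gene Dsp, had -0.50 (0.25). Of 6 suprabasal keratins 2 fell, Krt2 (-1.66, 0.38) and Krt80 (-1.44, 0.28), while Krt10, the most abundant, had -2.43 (0.84) and did not pass. Of 4 injury-induced keratins 3 rose, Krt16 (5.03, 0.36), Krt6a (2.78, 0.49) and Krt6b (6.38, 0.65).

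Fosl1, which encodes an AP-1 subunit, rose with HDM in CTL mice (log2 fold change 2.87, standard error 0.67, edgeR FDR 0.097). Of 10 tested genes for filaggrin processing and desquamation 1 rose, the protease Klk6 (3.91, 0.87, FDR 0.088 by edgeR), beside 2.37% of all tested genes. With butyrate in lesional skin 0 genes of these lists were called by edgeR (background 0%). The injury-induced keratins then had a median of -1.07 and the suprabasal keratins 1.52, beside -0.01 over all tested genes, and the 15 partner genes had 0.34 and the transcription factors 0.19.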

How the data were processed

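RNA from 8 mouse skin samples was prepared with the Illumina TruSeq RNA kit. Per the submitters' processing notes, reads were aligned with STAR 2.5.2 to GRCm38 and counted with featureCounts, and the deposited table holds raw counts per protein-coding gene from a reverse-stranded count. Genes were kept by filterByExpr with a minimum count of 10, scaled by TMM and fitted over all 8 mice with edgeR 4.0.16's robust quasi-likelihood model in R 4.3.3 (common biological coefficient of variation 0.276, 4 residual degrees of freedom). P-values were adjusted over all 15163 tested genes and reflect the spread between mice. Subfamily sums were tested in the same way, beside the genes. CPM used TMM-scaled totals. The tests were checked on simulated counts that gave each gene 1 spread in all groups, whereas the real groups differed in spread. At the estimated spread DESeq2 made more wrong calls than edgeR or limma-voom and recovered more of the changed genes. At a smaller fixed spread it made the fewest wrong calls. The simulation therefore does not rank the tools for these mice. Each result was recomputed with DESeq2 1.42.0, with limma 3.58.1 (voom), with other scalings and filters, with only the compared mice and with each mouse left out, and fits without baseline butyrate mice were added after seeing the data. Full statistics are given for Lor, Ivl, Flg2, Hrnr, Rptn, Lce1m, Sprr1b, Sprr2d, Lce3b and the called members with the largest changes. The members and gene lists were chosen with earlier results of these data known. Promoters came from RefSeq (GRCm38.p6). The full count of called transcription factors is not reported here.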

Additional observations from a re-analysis of the deposited data

Results flagged for a closer look

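Whether an effect differed between 2 settings was tested for each named member and subfamily sum, and 5 stood out because the groups lay apart without overlap in opposite directions in the 2 settings. All 5 had an edgeR FDR of 0.840, so none passed. The difference of the butyrate effect, lesional minus baseline skin, was 2.53 for Lor (standard error 0.93), 2.14 for the Lce1 sum (0.87), -0.70 for Sprr1b (0.27) and -3.0 for Lce3b (0.81) on the log2 scale. Hrnr had a difference of 2.24 (1.04) between the HDM effects in butyrate and CTL mice, with 117 and 176 CPM in lesional CTL mice against 206 and 250 at baseline, and 477 and 289 CPM in lesional butyrate mice against 215 and 38.3 at baseline. Each of these uses baseline butyrate replicate 3, and without that mouse edgeR called 0 members for the difference. The baseline levels of Lce3b were at most 0.191 CPM, close to the floor of 3 counts. Of the 44 tested members, 17 lay apart in opposite directions with butyrate in lesional and in baseline skin, where 7.47% of all tested genes did so, and 4 with HDM in CTL and in butyrate mice, where 3.1% did so.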

How the results depend on the processing

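No paired analysis was made, because each library came from a separate mouse and the labels name no matched mice across groups. For butyrate in lesional skin, members called were 0 by edgeR and limma-voom, 6 by DESeq2, 6 without either baseline butyrate mouse and 12 by limma-voom without baseline butyrate replicate 3, and the subfamily sums called went from 0 to 1 in the same 3 fits. For HDM in CTL mice, 20 members became 31 by DESeq2 (7.21% of all tested genes) and 30 scaled to Krt5 and Krt14 (14%). They became 32 with only the compared mice by edgeR or limma-voom (12.9% each) and 33 without either baseline butyrate mouse (12.4%). The sums called went from 2 to 4 in all of these. For HDM in butyrate mice, 11 members became 7 by limma-voom, 28 by DESeq2, 25 scaled to Krt5 and Krt14, 22 by limma-voom without replicate 3, 6 at an FDR below 0.05 and 0 with only the compared mice, and 1 called sum became 2 by limma-voom, DESeq2 or that scaling, 3 by limma-voom without replicate 3 and 0 with only the compared mice. DESeq2 called 2 members for the difference of the butyrate effects. Leaving out each mouse gave 0 to 34 members for HDM in CTL mice (sums 0 to 4), 0 to 38 for HDM in butyrate mice (sums 0 to 3), 0 to 26 for butyrate in baseline skin (sums 0 to 3), 0 to 6 in lesional skin (sums 0 to 1) and 0 to 25 for the difference (sums 0 to 3). The values 38, 26 and 25 came without baseline butyrate replicate 1, in fits that called 19.1%, 24.1% and 20.9% of all tested genes. The cause was not tested.

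Signs turned for values near 0. Scaling to Krt5 and Krt14, which moved the median of all genes by -0.73 for HDM in butyrate mice and 0.25 for butyrate in baseline skin, gave Lor -0.57, Ivl -0.48 and the Lce1 sum -0.33 for the former, Sprr2b 0.12 and Sprr2i 0.13 for the latter, Ivl -0.26 for HDM in CTL mice and -0.22 for the difference, and the Sprr1 sum -0.046 for butyrate in lesional skin. Library totals gave Ivl -0.0095 for the difference and the Sprr1 sum -0.0021 in lesional skin. limma-voom gave Flg2 0.10 for HDM in butyrate mice (0.10 with only those mice), Sprr2f -0.21 at baseline, Sprr2e 0.78 for the difference and the Sprr1 sum -0.0087 in lesional skin (-0.0090 with only those mice). limma-voom without baseline butyrate replicate 3 gave Lor -0.61 and the Lce1 sum -0.32 for HDM in butyrate mice, Rptn -0.70, Sprr2f -1.92, Sprr2i 0.021 and the Sprr1 sum -0.068 at baseline, Sprr2d -0.42, Lce3f 0.018 and the Sprr1 sum 0.060 for the difference, and the Sprr1 sum -0.0081 in lesional skin.

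Leaving out 1 mouse at a time turned the sign of these values. For HDM in butyrate mice the ranges were Flg2 -0.85 to 1.26, Ivl -0.20 to 0.99, the Lce1 sum -0.29 to 1.64, Lce1m -2.11 to 0.028, Lor -0.59 to 1.61 and the Sprr1 sum -0.053 to 3.20. For butyrate in baseline skin they were Rptn -0.78 to 0.69, the Sprr1 sum -0.069 to 3.18, Sprr2a3 -0.69 to 1.37, Sprr2b -2.42 to 2.35, Sprr2f -2.44 to 1.4 and Sprr2i -0.20 to 0.019. In lesional skin they were the Sprr1 sum -0.22 to 0.20 and Sprr2a3 -0.89 to 0.48. For the difference they were Ivl -0.38 to 0.81, Lce3e -0.96 to 0.25, Lce3f -0.44 to 0.27, the Sprr1 sum -3.18 to 0.075, Sprr2a3 -1.74 to 0.33, Sprr2b -3.47 to 1.29, Sprr2d -0.28 to 2.65, Sprr2e -1.28 to 4.73 and Sprr2f -3.28 to 0.56. In butyrate-treated lesional skin the Lce1 median stayed between 0.81 and 1.27, that of Lce3 between -1.95 and -1.33 and that of Sprr2 between -2.06 and -0.75 in all fits. Of the recomputed log2 fold changes of 17 named members and the subfamily sums, 1701 kept direction and call, 105 were newly called, 114 were no longer called and 61 turned. The difference of the butyrate effects was not fitted with only the compared mice or without either baseline butyrate mouse, since it needs all 4 groups.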
